A study of Mus musculus with 18 samples.

Results

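Small nucleolar RNAs (snoRNAs) and the related small Cajal body RNAs (scaRNAs) were examined in mouse livers. The mice ate a purified or a Western (FPC) diet and carried a GFP vector or, on the FPC diet only, a lysosomal lipase vector. Members were chosen by name and by their summed raw counts: a gene was included when its symbol was Snord, Snora or Scarna followed by a number and when at least 20 raw counts were summed over the 18 libraries. Of 150 genes with such symbols among 55487 in the table, 37 were included, namely 23 Snord, 11 Snora and 3 Scarna genes. Another 23 had from 1 to 19 counts and 90 had none. The members nearest to the limit were Snord42b with 21 counts, Snord23 with 23 and Snord4a with 27, and those just outside it were Snora23 with 19 counts and Snord87 and Snora2b with 18 each. All 37 were annotated as snoRNA or scaRNA genes in GENCODE M21.

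The livers came from male C57BL/6J mice, bought at 7 weeks of age, that received an adeno-associated virus 1 week before a diet of 16 weeks and were fasted for 4 h. CON-GFP mice carried a GFP vector and ate a purified diet, FPC-GFP mice carried the GFP vector and ate the FPC diet (high in fat, with added fructose, palmitate and cholesterol), and FPC-LIPA mice ate the FPC diet with a vector for human LIPA, which encodes lysosomal acid lipase. Vector expression was driven in hepatocytes, all groups including the controls carried a vector, and each group had 6 mice with 1 library each. FPC-GFP was compared with CON-GFP to ask what the diet changed, and FPC-LIPA with FPC-GFP to ask what LIPA changed on that diet, so both comparisons share the FPC-GFP libraries.

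SnoRNAs are short nuclear RNAs that guide chemical modification of other RNAs. Box C/D snoRNAs (Snord genes) direct ribose methylation with fibrillarin, box H/ACA snoRNAs (Snora genes) direct pseudouridylation with dyskerin, and scaRNAs do the same for spliceosomal RNAs in Cajal bodies. A few act instead in the cutting or folding of pre-ribosomal RNA. Most mammalian snoRNAs are spliced out of introns of host genes, often genes of ribosomal proteins or of noncoding RNAs, and a minority have promoters of their own. The snoRNAs of the Rpl13a introns are known from lipotoxic and oxidative stress in cultured cells, and U17 (Snora73) from cholesterol trafficking.

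The sequences of Snord118 and Scarna2, which passed the test with LIPA, and of the snoRNA with the most counts are shown first, because the results turn on these RNAs. They are the transcripts of GENCODE M21 on GRCm38, 5′ to 3′. Capitals mark the C box (NTGATGA, the first match) and the D box (CTGA, the last match after it).
Snord118, chr11:69073427-69073561, plus strand: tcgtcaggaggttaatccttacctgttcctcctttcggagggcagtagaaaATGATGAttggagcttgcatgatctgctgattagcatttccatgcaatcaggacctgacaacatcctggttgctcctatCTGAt
Scarna2, last 80 of 414 bases, chr3:108554338-108554417, minus strand: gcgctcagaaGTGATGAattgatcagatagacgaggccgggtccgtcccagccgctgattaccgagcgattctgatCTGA
Snord104, chr11:106500993-106501062, plus strand: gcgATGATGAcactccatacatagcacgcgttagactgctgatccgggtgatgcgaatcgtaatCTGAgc
In Snord104 the C box began at base 4, close to the 5′ end, whereas in Snord118 and Scarna2 it began at bases 52 and 345. Both box letters were found in this order, on the transcribed strand, in 16 of the 23 Snord members (69.6%), in 75 of all 99 Snord genes (75.8%), and in 0 of 42 Snora genes.

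These 37 genes differed in where they lie. In 28 the whole RNA fell in an intron of a GENCODE host gene on the same strand, at a median of 69 bases from the nearest host exon, and 2 more overlapped host exons in part (Snora73a in Snhg3 and Snord42b in Rpl23a). The 30 genes had 25 different hosts, 9 of them ribosomal protein genes that held 12 snoRNAs. A further 4 (Snord104, Snora57, Snora17 and Scarna17) had no GENCODE host but lay within the span of a RefSeq gene. Snord118, Scarna2 and Snord13 lay in neither. Their nearest genes on the same strand were Tmem107 at 134 bases, Tmem167b at 1674 bases and Mak16 at 9496 bases.

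Counts were low throughout, and this set the precision of every value. The libraries held 16632146 to 37739301 counts, of which the 37 genes took 5660 in all (0.00112%). Levels are given in CPM, counts scaled to library size and by TMM over the 18 libraries, and a gene with 3 counts or fewer in a library was treated as at the floor, which was 0.0733 to 0.218 CPM on this scale. From 17 to 32 of the 37 genes were at or under this floor in each library. Only Snord104, Snora73b and Snora31 had a count in every library, and 27 genes had fewer than 100 counts in total. The median standard error (SE) of a log2 fold change was 0.76 for these genes with the diet and 0.92 with LIPA, against 0.22 and 0.31 over all 19191 genes tested. Fewer cells that make an RNA and less RNA per cell cannot be told apart in whole liver.

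Several library measures moved with the FPC-LIPA group and touch the results below. Cytosolic ribosomal protein genes took 1.44% to 2.54% of counts in the CON-GFP and FPC-GFP libraries, but 6.48%, 8.09% and 8.15% in FPC-LIPA 36, 37 and 39, and 2.16% to 2.95% in the other 3. Leukocyte markers (11 of 11 detected) summed to 62.2 to 137 CPM in CON-GFP, 164 to 424 in FPC-GFP and 474 to 907 in FPC-LIPA, and hepatocyte markers (6 of 6 detected) to 65007 to 97203, 56479 to 82921 and 45830 to 72158 CPM. Stellate cell markers summed to 427.5 CPM in FPC-LIPA 37 and to at most 201 in any other library. In FPC-LIPA single genes made up most of each sum. Lyz2 averaged 482 of 653 CPM for leukocytes, Alb 43148 of 61168 for hepatocytes and Col3a1 142 of 195 for stellate cells. With LIPA, 10 leukocyte markers had a log2 fold change above 0 and 1 (Csf1r, -0.16) below. For hepatocyte markers 2 were above 0 and 4 below, and for stellate cell markers 2 and 2. Mouse Lipa, which the human transgene need not raise, was 339 ± 61.5 CPM in FPC-GFP and 293 ± 51.0 in FPC-LIPA (SD, n = 6), so it does not check the labels.

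Per base, Snord104 had by far the most counts, at 68.8 CPM per kilobase as a mean over the 18 libraries. Next were Snora31 at 6.49, Snord118 at 5.76, Snora73b at 4.43 and Snord37 at 3.30. The kits select poly(A) RNA and recover short RNAs poorly, so this order ranks counts and not amounts of mature RNA. The place of Snord118 came from the FPC-LIPA libraries, since it was at 1.40, 1.08 and 14.8 CPM per kilobase in CON-GFP, FPC-GFP and FPC-LIPA. Snord104 alone held 43.3% of the counts of the 37 genes. Its level lay between 3.48 and 5.33 CPM in CON-GFP (median 4.29), between 2.11 and 6.67 in FPC-GFP (median 3.96) and between 2.56 and 11.0 in FPC-LIPA (median 6.00). The groups overlapped in both comparisons. Its log2 fold change was -0.11 with the diet (SE 0.24, adjusted p = 0.802 by edgeR) and 0.70 with LIPA (SE 0.34, adjusted p = 0.156 by edgeR), neither past the threshold.

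Summed over the 37 genes, the level was 10.4 ± 2.22 CPM in CON-GFP, 8.54 ± 2.41 in FPC-GFP and 15.0 ± 6.29 in FPC-LIPA (SD, n = 6). FPC-LIPA 39 was highest at 25.2 CPM and FPC-LIPA 34 and 31, at 6.64 and 11.2, lay within the range of the FPC-GFP libraries (5.01 to 12.4). By family, the Snord genes summed to 6.55 ± 0.849, 5.66 ± 2.01 and 10.8 ± 4.70 CPM in the 3 groups in this order. The Snora genes summed to 3.77 ± 1.46, 2.64 ± 0.765 and 3.43 ± 1.54 CPM, and the Scarna genes to 0.132 ± 0.0663, 0.245 ± 0.144 and 0.845 ± 0.784 CPM.

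**Figure D1:**
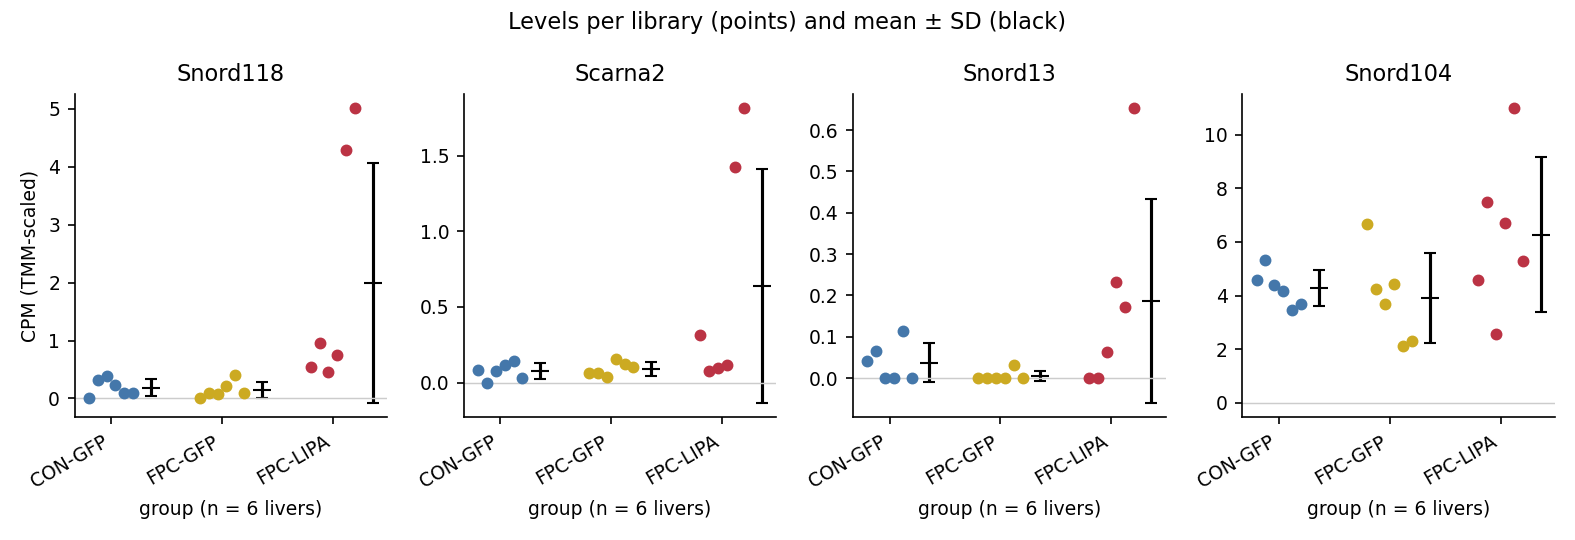
Level of 4 genes in each library (points, CPM scaled by TMM, linear axes that differ between panels), with the group mean and SD in black (n = 6 livers per group). Snord118 in FPC-LIPA (0.449 to 5.01 CPM) lies above all FPC-GFP libraries, whereas Snord104 overlaps between groups.

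With the FPC diet, none of the 37 genes passed the test. A call needed a change of 2-fold or more in either direction together with a Benjamini-Hochberg p below 0.05. Of all genes tested 6.13% met this between FPC-GFP and CON-GFP, and 0 of the 37 did in the edgeR quasi-likelihood test or in DESeq2. At an unadjusted p under 0.05 there were 4 with either tool, against 31.3% of all genes with edgeR. Another 50 genes annotated as snoRNA or scaRNA under other names were also tested. Of these 50, 3 were called with the diet, all lower, beside 6.13% of all genes. With LIPA 0 of the 50 were called, where 7.69% of all genes were called higher and 0.959% lower. Of the 37, 23 had a log2 fold change below 0 (48.6% of all genes did), and their median was -0.29 beside 0.02 for all genes tested. This median was -0.42 to -0.0930 with each library left out, and nearer to 0 by over 1.5 times without CON-GFP 1 (-0.0930), 2 (-0.10) or 6 (-0.15) or FPC-GFP 12 (-0.18) or 20 (-0.16). It was -0.079 among libraries with sample sheet numbers from 55 to 68 and -0.0658 when scaled by library size alone. Snord53, which lies in an intron of the ribosome biogenesis gene Wdr43, had the smallest p. It was at 0.0862 to 0.232 CPM in CON-GFP (median 0.142) and at 0 to 0.0623 in FPC-GFP (median 0.0477). All FPC-GFP libraries were below all CON-GFP libraries, as was so for 3.77% of all genes, and the log2 fold change was -1.89 (SE 0.66, adjusted p = 0.0575 by edgeR). It rested on 24 counts against 7. Snord53, Snord42b and Snord123 lie outside the rule for named genes and were chosen after their values were seen.

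The other 3 with an unadjusted p under 0.05 were also at the edge of detection. Snora73a, a copy of U17 in Snhg3, had 24 counts in CON-GFP and 7 in FPC-GFP (log2 fold change -2.07, SE 0.83), and CON-GFP 2 alone was at 0.650 CPM. Snord42b had 10 counts and 1 count, a ratio of 0.0992 (95% exact interval 0.00229 to 0.697, counting error only). Scarna6, in an intron of the autophagy gene Atg16l1, went the other way, with 2 counts and 19 counts (ratio 9.42, interval 2.27 to 83.4).

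With LIPA, 3 of the 37 genes rose and none fell. These were Snord118 (U8, needed for processing of the large-subunit ribosomal RNA), Snord13 (U13, which pairs with the small-subunit ribosomal RNA) and Scarna2 (a guide for a spliceosomal RNA). They are the 3 genes that lie in no host gene and no RefSeq span, and none of the 34 others was called. Between FPC-LIPA and FPC-GFP, 7.69% of all genes tested were called higher and 0.959% lower, so 3 of 37 is close to the share of all genes. At an unadjusted p under 0.05 there were 4 of the 37, against 33.3% of all genes. A log2 fold change above 0 was found in 29 of the 37 and in 53.9% of all genes. The median of the 37 was 0.63, beside 0.07 for all genes tested and 0.73 for 323 other genes with at most 300 exonic bases, of which 49 were called higher and 0 lower.

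Snord118 was at 0.449 to 5.01 CPM in FPC-LIPA (median 0.855), at 0 to 0.397 in FPC-GFP (median 0.0963) and at 0 to 0.383 in CON-GFP (median 0.169). Each FPC-LIPA library was above each FPC-GFP library, as was so for 2.77% of all genes, and FPC-LIPA 37 and 39 stood far above the other 4 at 5.01 and 4.28 CPM. The raw counts were 17, 39, 14, 26, 69 and 99 in FPC-LIPA 31, 33, 34, 36, 37 and 39, and from 0 to 13 in FPC-GFP. The log2 fold change was 3.72 (SE 0.78, adjusted p = 0.0129 by edgeR), a 13.2-fold higher level. Tmem107, which ends 134 bases upstream on the same strand, had 1.29 ± 0.294 CPM in FPC-GFP and 1.08 ± 0.411 in FPC-LIPA (log2 fold change -0.24, SE 0.32).

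Scarna2 was at 0.0733 to 1.81 CPM in FPC-LIPA (median 0.217), at 0.0343 to 0.154 in FPC-GFP (median 0.0812) and at 0 to 0.144 in CON-GFP (median 0.0803). Only FPC-LIPA 31, 37 and 39 were above the FPC-GFP range, and the groups overlapped. The log2 fold change was 2.75 (SE 0.84, adjusted p = 0.0400 by edgeR). Its neighbour Tmem167b had a log2 fold change of -0.33 (SE 0.21).

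Snord13 rested on the fewest counts. It had 0, 0, 2, 8, 9 and 4 counts in FPC-LIPA 31, 33, 34, 36, 37 and 39, 1 count in all FPC-GFP libraries together and 6 in CON-GFP. The groups overlapped, since FPC-LIPA 31 and 33 had none. The log2 fold change was 4.20 (SE 1.30, adjusted p = 0.0429 by edgeR), and the ratio of 23 counts to 1, per total counts, was 22.4 with a 95% exact interval of 3.64 to 924, which covers counting error only. Mak16 had a log2 fold change of 0.41 (SE 0.22).

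The 3 calls were also read with libraries left out. Without FPC-LIPA 36, 37 and 39 none of the 3 was called, and their log2 fold changes were 2.11 for Snord118, 0.82 for Scarna2 and 1.34 for Snord13, while 107 of all genes were called in place of 1660. Among libraries with sample sheet numbers from 55 to 68, which leave out FPC-LIPA 37 and FPC-GFP 20, 0 of the 37 were called and 3 had an unadjusted p under 0.05, while 78 of all genes were called. There the log2 fold changes were 3.13 for Snord118 (adjusted p = 0.0763 by edgeR), 2.13 for Scarna2 and 3.24 for Snord13. Summed, the 3 genes were at 0.0623 to 0.550 CPM in FPC-GFP, 0.126 to 0.460 in CON-GFP, 0.609 to 1.11 in FPC-LIPA 31, 33, 34 and 36, and 5.89 and 7.47 in FPC-LIPA 39 and 37. Leaving out 1 library, any of the 6 FPC-GFP libraries or FPC-LIPA 36, 37 or 39, ended the calls of Scarna2 and Snord13, and Snord118 was still called. Without 1 FPC-GFP library the log2 fold change was 2.60 to 2.98 for Scarna2 and 4.03 to 5.39 for Snord13. Without FPC-LIPA 36, 37 or 39 it was 2.94, 2.097 and 2.26 for Scarna2, and 4.02, 3.33 and 4.18 for Snord13. With each library's trend on gene length removed, Snord118 alone was called and the median of the 37 turned to -0.63. The part of ribosomal protein content and cell makeup in these values was not tested.

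**Figure D2:**
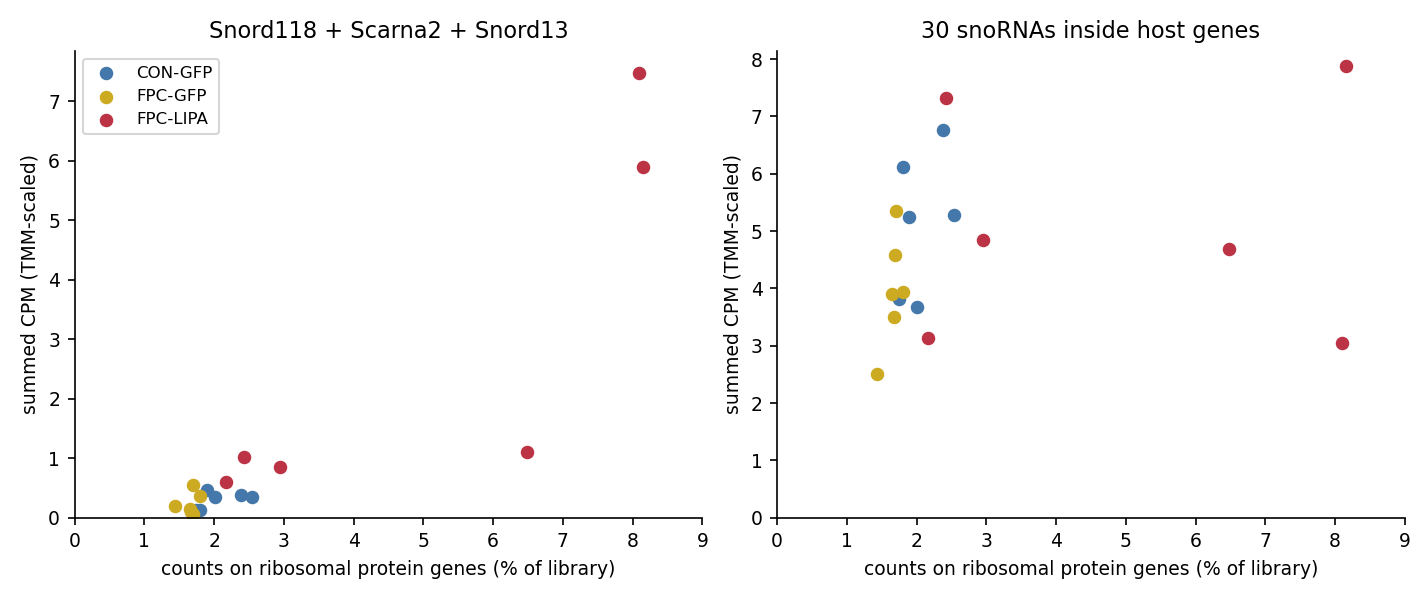
Summed CPM of Snord118, Scarna2 and Snord13 (left) and of the 30 snoRNAs inside GENCODE host genes (right) against the percent of each library's counts on ribosomal protein genes, 1 point per liver. The left sum is highest in FPC-LIPA 37 and 39 (7.47 and 5.89 CPM at 8.09% and 8.15%). In the right panel these 2 libraries lie at the low and the high end (3.05 and 7.88 CPM). FPC-LIPA 36 has a left sum of 1.11 CPM at 6.48%, and FPC-LIPA 33 one of 1.03 CPM at 2.42%.

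**Figure D3:**
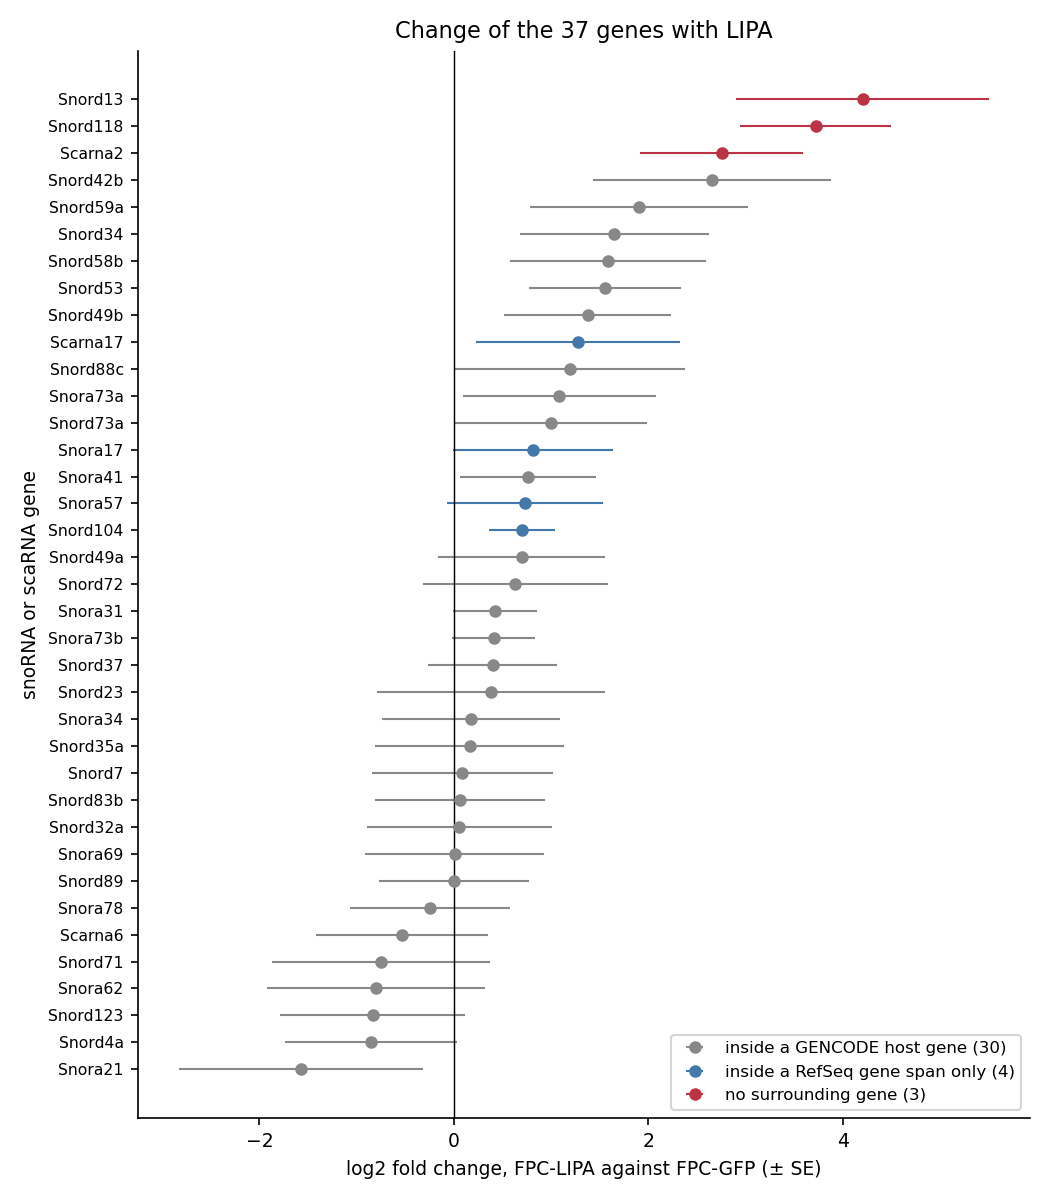
Log2 fold change (± SE) of each of the 37 genes in FPC-LIPA against FPC-GFP, coloured by whether the gene lies in a GENCODE host (30), in a RefSeq span only (4) or in neither (3). Snord13, Snord118 and Scarna2 are at the top, and most other intervals reach 0.

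The 30 snoRNAs inside host genes had a median log2 fold change of 0.39 with LIPA, 22 were above 0, and 0 were called, with 1 at an unadjusted p under 0.05 (Snord42b, 2.65, SE 1.22). Their summed level was 3.96 ± 0.963 CPM in FPC-GFP and 5.16 ± 2.05 in FPC-LIPA. Within FPC-LIPA they varied from liver to liver. Snora41, in an intron of the elongation factor gene Eef1b2, was at 1.27 CPM in FPC-LIPA 33 and at 0 in FPC-LIPA 36, and at 0.172 to 0.350 in FPC-GFP (log2 fold change 0.76, SE 0.70). Snora31, in Tpt1, was at 0.218 to 1.37 CPM in FPC-LIPA and 0.405 to 1.13 in FPC-GFP (0.42, SE 0.43), and its lowest value, in FPC-LIPA 37, was 3 counts. Snora73b, a copy of U17, was at 0.495 to 1.95 CPM and 0.339 to 1.15 in these groups (0.41, SE 0.42). The groups overlapped for each. Of the genes within RefSeq spans, Snora57 had a log2 fold change of 0.73 (SE 0.80), Snora17 of 0.81 (SE 0.82) and Scarna17 of 1.28 (SE 1.05).

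More of the host genes were called than of the snoRNAs within them. Of the 25 hosts, 11 were called higher with LIPA and 0 lower, beside 7.69% and 0.959% of all genes tested. Ribosomal protein genes made up 9 of the 25, and of 82 cytosolic ribosomal protein genes tested 56 were called higher (median 1.79). The hosts had a median log2 fold change of 1.02, and 14 snoRNAs lay in a called host. In all 14 of these pairs the host's log2 fold change was above that of the snoRNA, with medians of 2.07 for the host and 0.53 for the snoRNA. These pairs were picked by the host's call, and no snoRNA in a host was called, so this order was largely set beforehand. They lie in 11 hosts, so some pairs share a host. Over all 30 pairs the host's change was the higher in 22, and the signs were opposite in 11. The difference within pairs was not tested, and the SE of the snoRNAs was large. Eef1b2 had a log2 fold change of 1.95 (SE 0.41), Tpt1 of 1.51 (SE 0.36) and the ribosomal protein gene Rpl3, host of Snord83b, of 1.05 (SE 0.28), where Snord83b had 0.07 (SE 0.87). Eef2, host of Snord37, had -0.83 (SE 0.29) where Snord37 had 0.40 (SE 0.66). Without FPC-LIPA 36, 37 and 39 only 2 of the 25 hosts were called, and their median was 0.21. With the diet 1 host was called (Snhg18, higher), beside 6.13% of all genes, and the median of the 25 was -0.39.

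**Figure D4:**
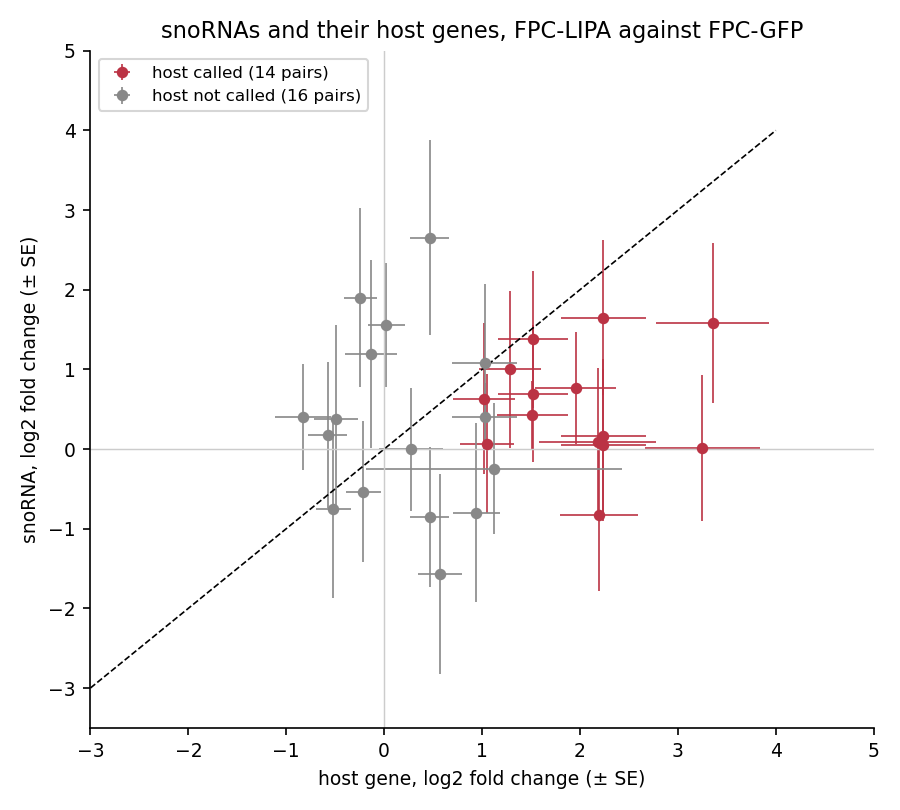
Log2 fold change in FPC-LIPA against FPC-GFP of 30 snoRNAs (vertical, ± SE) and of their host genes (horizontal, ± SE), with the line of equal change dashed. The 14 pairs with a called host, picked by that call, lie below the line. Over all 30 pairs the host's change is the higher in 22.

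The snoRNAs of the Rpl13a gene showed no call in either comparison. Their sequences are given with the same boxes in capitals, where found.
Snord32a, chr7:45127382-45127464, minus strand: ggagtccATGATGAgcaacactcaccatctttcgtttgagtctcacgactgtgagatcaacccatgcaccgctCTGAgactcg
Snord34, chr7:45126601-45126670, minus strand: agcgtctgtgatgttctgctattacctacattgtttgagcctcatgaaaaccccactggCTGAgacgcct
Snord35a, chr7:45126346-45126435, minus strand: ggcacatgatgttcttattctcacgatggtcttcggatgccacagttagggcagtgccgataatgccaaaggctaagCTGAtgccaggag
Of these 4 genes, 3 were tested and Snord33 had too few counts. With the diet the log2 fold changes were -0.95 for Snord32a (SE 0.67), -0.11 for Snord34 (SE 0.84) and -1.80 for Snord35a (SE 0.90). With LIPA they were 0.05 (SE 0.95), 1.65 (SE 0.97) and 0.16 (SE 0.97), where the host Rpl13a was called higher at 2.24 (SE 0.43). Snord32a was at 0 to 0.156 CPM in FPC-GFP and 0 to 0.260 in FPC-LIPA, and Snord35a at 0 to 0.0924 and 0 to 0.0951. At these counts a change could not be detected reliably. Of the 9 genes in the table from the list of snoRNAs of pre-ribosomal RNA cleavage, 4 were tested, and Snord118 and Snord13 were called with LIPA while Snora73a and Snora73b were not. None of the snoRNAs of the Gas5 gene (4 in the table) or of the Snhg1 gene (1 in the table) reached 20 counts.

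The proteins that bind snoRNAs were not called. None of 4 box C/D proteins (Fbl, Nop56, Nop58, Snu13) and none of 4 box H/ACA proteins (Dkc1, Nop10, Nhp2, Gar1) passed in either comparison, with edgeR. At an unadjusted p under 0.05 there was 1 of the box C/D list with the diet, and 1 of each list with LIPA. Of all genes, 31.3% were with the diet and 33.3% with LIPA. Snu13, the most abundant box C/D protein gene, was at 32.6 ± 6.25 CPM in FPC-GFP and 32.6 ± 7.77 in FPC-LIPA (log2 fold change 0.02, SE 0.20), and Nop10 at 65.8 ± 10.8 and 73.9 ± 27.3 CPM (0.19, SE 0.23). Of all genes, 7.69% were called higher and 0.959% lower with LIPA. Of 16 assembly and Cajal body factors, 1 was called, with LIPA. This was Znhit3, an assembly factor of box C/D particles, which rose from 5.23 ± 1.14 to 28.3 ± 24.0 CPM (log2 fold change 2.47, SE 0.50, adjusted p = 0.0114 by edgeR). Of the 16, 5 had a log2 fold change above 0 with LIPA and 11 below, and the median was -0.28. At an unadjusted p under 0.05 there were 5 of the 16, 1 higher and 4 lower, beside 33.3% of all genes. Of 26 genes of RNA polymerase I and ribosomal RNA processing, 3 were called with LIPA, of which Polr1d (1.10, SE 0.30) and Npm1 (1.14, SE 0.34) rose and Nop2, a ribosomal RNA methyltransferase gene, fell (-1.15, SE 0.32). Across 22 alternatives Polr1d and Npm1 were each called in 10 and Nop2 in 13. At an unadjusted p under 0.05 there were 12 of the 26, 3 higher and 9 lower, beside 33.3% of all genes. Without FPC-LIPA 36, 37 and 39, Znhit3 had a log2 fold change of 0.67, and Znhit3, Polr1d, Npm1 and Nop2 were not called. The median of the 26 with LIPA was -0.28. With the diet 0 of them were called and 8 had an unadjusted p under 0.05, beside 6.13% and 31.3% of all genes.

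Of 20 long noncoding RNAs tested that host snoRNAs, 6 were called with LIPA, all higher, as were 7.69% of all genes. All 20 had a log2 fold change above 0 under TMM scaling, as did 53.9% of all genes. The 6 called were Snhg18, Snhg6, Zfas1, Epb41l4aos, Snhg15 and Snhg1, with log2 fold changes from 2.20 (Snhg18, SE 0.40) to 1.13 (Snhg1, SE 0.33). The median of the 20 was 0.66, and without FPC-LIPA 36, 37 and 39 it was 0.19 and 0 were called. Snhg18, whose snoRNA is Snord123, also rose with the diet, from 1.78 ± 0.243 to 4.73 ± 1.37 CPM, and reached 21.4 ± 14.7 in FPC-LIPA. Snord123 itself was at 0.94 (SE 0.85) with the diet and -0.83 (SE 0.95) with LIPA on the log2 fold scale. Gas5, the most abundant host, was at 41.4 ± 5.33 CPM in FPC-GFP and 52.4 ± 9.71 in FPC-LIPA (0.36, SE 0.18), and Snhg11 at 18.0 ± 5.75 and 18.9 ± 5.79 (0.10, SE 0.26).

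Of 20 other small structured RNAs, only 3 had enough counts to be tested, and 2 were called with LIPA, both higher, beside 7.69% of all genes. Rn7sk, the RNA that holds the elongation factor P-TEFb inactive, was at 0.216 ± 0.186 CPM in FPC-GFP and 1.88 ± 1.86 in FPC-LIPA (log2 fold change 3.16, SE 0.71, adjusted p = 0.0154 by edgeR). With the diet it fell, from 0.602 ± 0.247 CPM (log2 fold change -1.51, SE 0.50, adjusted p = 0.0464 by edgeR). Vaultrc5, a vault RNA, was at 0.0102 ± 0.0158 CPM in FPC-GFP and 0.158 ± 0.132 in FPC-LIPA (3.38, SE 1.04). The calls held in 20 of 22 alternatives for Rn7sk with LIPA, in 7 of 21 for Rn7sk with the diet and in 7 of 21 for Vaultrc5. The third RNA tested, Rny1, was not called with LIPA (log2 fold change 2.25, SE 1.22, adjusted p = 0.204 by edgeR). The planned list also held the microRNA genes (symbols starting with Mir), of which 53 were tested. Of these 53, 5 were called with LIPA, all higher, beside 7.69% of all genes, and their median log2 fold change was 0.40. With each library's trend on gene length removed, Rn7sk was still called with LIPA. In that fit Vaultrc5 with LIPA (2.25, adjusted p = 0.125 by edgeR) and Rn7sk with the diet (-1.36, adjusted p = 0.0703 by edgeR) were not called. Whether gene length or transcription outside a host gene is a cause of these values was not tested.

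Over the 18 libraries, the genes whose log2 CPM was most like that of Snord118 were Casp4 (Pearson r = 0.94), Pycard (0.91) and BC028528 (0.91), among 12735 genes with a mean of at least 1 CPM. For Snord104 they were Dancr (0.83), Ccdc115 (0.81) and Snrpd1 (0.80), and for Snora31 Gm11560 (0.79), 4833420G17Rik (0.77) and Anapc15 (0.76). The points share group differences and library composition, and these values are a description.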

How the data were processed

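The authors trimmed paired reads with Trimmomatic (version 0.33), mapped them with Hisat2 (version 2.1.0) on the GRCm38 genome and summed them over genes by Feature Counts, and the deposited values are these raw counts. The annotation version, strand setting and treatment of reads with several matches are not given in the sources used here, and a TruSeq RNA or a stranded mRNA kit was used. Both kits select poly(A) RNA and recover short RNAs poorly. Another 5 columns of counts were not used. The sequence of Snord13 is not reported here.

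The 37 members and the gene lists were chosen with earlier results of these data known. Genes with at least 20 counts over 18 libraries (19191) were tested in the 12 libraries of each comparison with edgeR 4.0.16 (TMM, quasi-likelihood test, Benjamini-Hochberg adjustment) in R 4.3.3. The SE was the log2 fold change divided by the root of F. CPM were TMM-scaled, with a prior count of 2 for log2 CPM. Exact intervals were Clopper-Pearson. Alternatives were DESeq2 1.42.0, other scalings and filters, a length trend removed with GENCODE M21 lengths (55227 of 55487 genes found), other library sets and each library left out. The scripts were tested on simulated data. Nothing says beyond the mouse numbers that libraries are independent, and replicate libraries differed by a chi-square of at least 15.4 for each degree of freedom, so none was treated as a duplicate.

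Named genes were the 8 largest increases and decreases among called members, the 6 Snord, 6 Snora and 3 Scarna members of highest mean CPM, members of the 4 snoRNA lists, their hosts, called genes and the 2 most abundant of the protein and lncRNA lists, and the 3 genes most like each of the 3 members with the most counts in FPC-LIPA.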

Additional observations from a re-analysis of the deposited data

Results flagged for a closer look

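In 63 groups of 6 libraries (the summed level and each named gene in each group), 7 had a single library far from the others, by Dixon's ratio of gap to range at the 95% level. A rate of about 1 in 20 by chance holds for normally distributed values. Many of these groups are counts near the floor, so 7 of 63 cannot be set against that rate. FPC-LIPA 39 was high for Snora73b (1.95 CPM, next 1.03), Snord32a (0.260, next 0.0641) and Snora73a (0.346, next 0.0962). FPC-LIPA 37 was high for Snord13 (0.653, next 0.233). CON-GFP 2 was high for Snora73a (0.650, next 0.210), FPC-GFP 16 for Scarna17 (0.247, next 0.0308) and FPC-GFP 19 for Snord13 (0.0305, the only FPC-GFP library with a count).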

How the results depend on the processing

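With the diet, 0 members were called under every alternative run, and their median log2 fold change was -0.048 with each library's length trend removed, which also moved the median of all genes to -0.18. Library size alone moved that median to 0.21. With LIPA, 3 members were called with RLE factors, no filter, DESeq2, the robust test and all 18 libraries in one fit, 1 with library size alone, 1 with filterByExpr (which kept 6 members), 1 with the length trend removed and 0 with libraries numbered 55 to 68. Without FPC-LIPA 36, 37 and 39, chosen after seeing the data, the count was 0. With each library left out it was 1 to 3, namely 3 without FPC-LIPA 31, 33 or 34 and 1 without any other. The median was -0.63 with the length trend removed, below 0 and beside 0.16 for all genes, and 0.37 to 0.82 with each library left out. The cause of these changes was not tested. Snord118 was called in 20 of 22 alternatives (adjusted p 1.49e-05 to 0.155), and Scarna2 and Snord13 in 8 of 21 each (up to 0.638 and 0.693). Without the highest gene the summed level was 6.17, 4.63 and 8.76 CPM, and without the 3 highest 4.16, 3.23 and 6.92 in CON-GFP, FPC-GFP and FPC-LIPA. Depth limits all but the most abundant genes. No paired analysis was possible because the groups share no mouse numbers.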
